A study of Schizosaccharomyces pombe with 72 samples.

Results

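The upstream nutrient regulators of TORC1 in the fission yeast Schizosaccharomyces pombe were followed here as a set of 9 genes, out of 7014 genes in the counts table. They are rhb1, tsc1, tsc2, gtr1, gtr2, npr2, npr3, iml1 and gcn2, taken by their symbols. All 9 were found, and all 9 passed the filter on low counts in each comparison. RNA-sequencing covered 72 libraries, made from 4 strains with 3 biological replicates in each of 6 growth conditions. Nitrogen-deprived cells were grown in EMM2 medium and then held at 25°C in EMM2-N, which lacks a nitrogen source, with RNA taken after 24 hr (T0-N). These cultures went on for 4 further days at 36.5°C (T4D36.5) or at 25°C (T4D25). Cells arrested in G1 by the cdc10-129 allele were taken at 36.5°C (G1_36.5). Cells cycling in the rich medium YES were taken after a single doubling at 36.5°C (V36.5) or at 25°C (V25). The strains of the study were wild type, mis4-G1487D, with a changed cohesin loading factor, mip1-R401G, with a changed TORC1 subunit, and the double mutant. The labels give strains only as codes, which are 82, 83, 84 and 85 for G1_36.5 and 86, 92, 93 and 97 for the other conditions. The codes are not paired with genotypes in the sources used here, so strains are named by code and no genotype was compared. For G1_36.5 and T0-N the temperature comes from the study's methods, not from the labels. T0-N and V25 also differ in medium, and the T4D cultures were continued from the T0-N cultures.

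TORC1 is a protein kinase complex built on Tor2 that promotes growth when nitrogen and amino acids are plentiful, and that restrains sexual differentiation and entry into quiescence. Rhb1, the fission yeast Rheb, is the small GTPase that activates it, and the Tsc1-Tsc2 complex switches Rhb1 off, with Tsc2 carrying the GTPase-activating domain and Tsc1 as its partner. Gtr1 and Gtr2 form the heterodimer of Rag GTPases that links amino acid signals to TORC1 at the vacuole, and Iml1, Npr2 and Npr3 form the GATOR1-type complex that acts on these GTPases. Gcn2 is the kinase that phosphorylates the translation initiation factor eIF2 alpha when uncharged tRNA accumulates.

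The genes are given by their positions in the ASM294v2 genome, which the counts used. rhb1 (SPBC428.16c) is on the minus strand of chromosome II, where its 3 exons span 473670 to 474573, and shares 47 bases with a noncoding gene annotated on the same strand. tsc1 (SPAC22F3.13, 673984 to 678307) and tsc2 (SPAC630.13c, 369791 to 374217) are genes of 1 exon on the minus strand of chromosome I. gtr1 (SPBC337.13c) has 1 exon on the minus strand of chromosome II, from 1053622 to 1054973. gtr2 (SPCC777.05) has 2 exons on the plus strand of chromosome III, from 1605061 to 1606539. npr2 (SPAC23H3.03c) has 3 exons on the minus strand of chromosome I, from 2495844 to 2497780. npr3 (SPBC543.04, 4305178 to 4307927, plus strand, 3 exons) and iml1 (SPBC26H8.04c, 3948910 to 3953924, minus strand, 1 exon) are on chromosome II. gcn2 (SPBC36B7.09) is also on chromosome II, where its 2 exons span 2395941 to 2401552 on the plus strand. All of them except gtr1 overlap at least 1 annotated gene on the other strand. The libraries were stranded, but whether the counting used strand was not stated in the sources used here, so reads of overlapping genes may be shared.

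The regions in front of gtr2, tsc1 and gtr1 are shown because gtr2 and tsc1 rose strongly without nitrogen, whereas gtr1, whose product pairs with Gtr2, moved little. The region of rhb1, which rose about as much as tsc1, is not printed and held 0 matches to the motif marked below. Each run is read 5′ to 3′ on the strand of the gene from RefSeq's ASM294v3 genome, and covers the 200 bases from 250 to 51 before the gene start annotated there. The gtr2 region is chrIII:1604843-1605042 on the plus strand. The tsc1 region is chrI:678310-678509 and the gtr1 region chrII:1054982-1055181, both on the minus strand. Capitals mark GATAA on either strand, the core letters recognised by GATA-type factors such as Gaf1.
gtr2: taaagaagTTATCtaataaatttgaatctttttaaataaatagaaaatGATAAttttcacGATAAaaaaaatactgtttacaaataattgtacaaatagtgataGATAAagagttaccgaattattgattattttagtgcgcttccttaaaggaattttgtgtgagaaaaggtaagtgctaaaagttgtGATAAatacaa
tsc1: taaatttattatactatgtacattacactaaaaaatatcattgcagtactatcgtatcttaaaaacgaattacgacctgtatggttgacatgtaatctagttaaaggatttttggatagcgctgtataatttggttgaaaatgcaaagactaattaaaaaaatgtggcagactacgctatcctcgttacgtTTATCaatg
gtr1: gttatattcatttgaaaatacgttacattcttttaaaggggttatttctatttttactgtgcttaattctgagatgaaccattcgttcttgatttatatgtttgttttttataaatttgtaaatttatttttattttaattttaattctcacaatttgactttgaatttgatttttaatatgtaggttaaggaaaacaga
In the full 250 bases before the start annotated in ASM294v3, gtr2 held 5 matches to GATAA, gcn2 4, iml1 3 and tsc2 2. tsc1 and npr2 held 1 each, and rhb1, gtr1 and npr3 held 0. GATAA was present before 6 of the 9 genes and in 54.2% of 5112 regions taken the same way before protein-coding genes, called promoters here. The longer GATAAG, which contains GATAA, was found before tsc2, gcn2 and iml1 and in 10.2% of all promoters. TGACGT was found before npr2 (5.52% of promoters) and GAANNTTC before gcn2 (9.49%), while TTCTTTGTT (1.62%) was found before none of the genes. All motifs were searched on both strands. The starts annotated in ASM294v3 differ from the ASM294v2 spans given above, so the regions may hold transcribed bases. By position, those of gcn2 (chrII:2396182-2396431) and npr3 (chrII:4305611-4305860) lie inside the ASM294v2 spans, and that of npr2 (chrI:2497563-2497812) mostly does. The regions of the other genes reach into their spans, while the runs printed above do not. By position, the matches to the longer motifs before tsc2, gcn2, iml1 and npr2 all lie inside the ASM294v2 spans of these genes. Those matches are thus not shown to lie upstream, and an enrichment among the 9 genes was not tested. Whether positions match between these genomes was not tested. Without nitrogen, gtr2 with 5 GATAA matches rose most, while rhb1 with 0 matches rose more than gcn2 with 4. A relation between matches and change was not tested.

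A library held 1173880 to 7664476 counts in genes, and each regulator had 41 to 2002 counts in a library. Levels are given as CPM, normalised counts on the usual CPM scale after TMM normalisation across the 72 libraries. The growth states were checked against marker genes. The nitrogen starvation genes mei2, isp6, ste11 and amt1 were higher in T0-N than in V25, with log2 fold changes from 3.23 to 7.0. The heat shock genes hsp16, ssa1 and hsp104 were higher in V36.5 than in V25, by 1.97 to 4.17, but the libraries overlapped for all 3. In T4D36.5 against T4D25, 1 of these 3 was called higher, 1 lower and 1 was not called. The medians in T4D36.5 and T4D25 were 655 and 161 CPM for hsp16, 450.5 and 426 CPM for ssa1, and 216 and 267 CPM for hsp104. The S phase genes cdc22, cdc18 and cig2 were lower in G1_36.5 than in V36.5, with log2 fold changes from -2.08 to -1.26. These are targets of the transcription factor MBF. The arrest and the cdc10-129 allele itself cannot be told apart as the source of their lower level.

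rhb1 stood above the other regulators per length of exon, with a median of 344.0 CPM per kb in T0-N and 178.5 CPM per kb in V25. The other 8 genes lay between 22.5 CPM per kb for npr3 and 69.7 CPM per kb for gtr2 in T0-N. In V25 they lay between 18.0 CPM per kb for npr2 and 45.2 CPM per kb for tsc2. gtr2 was thus second to rhb1 in T0-N, whereas in V25 its 26.4 CPM per kb were close to the 26.5 CPM per kb of gtr1.

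**Figure D1:**
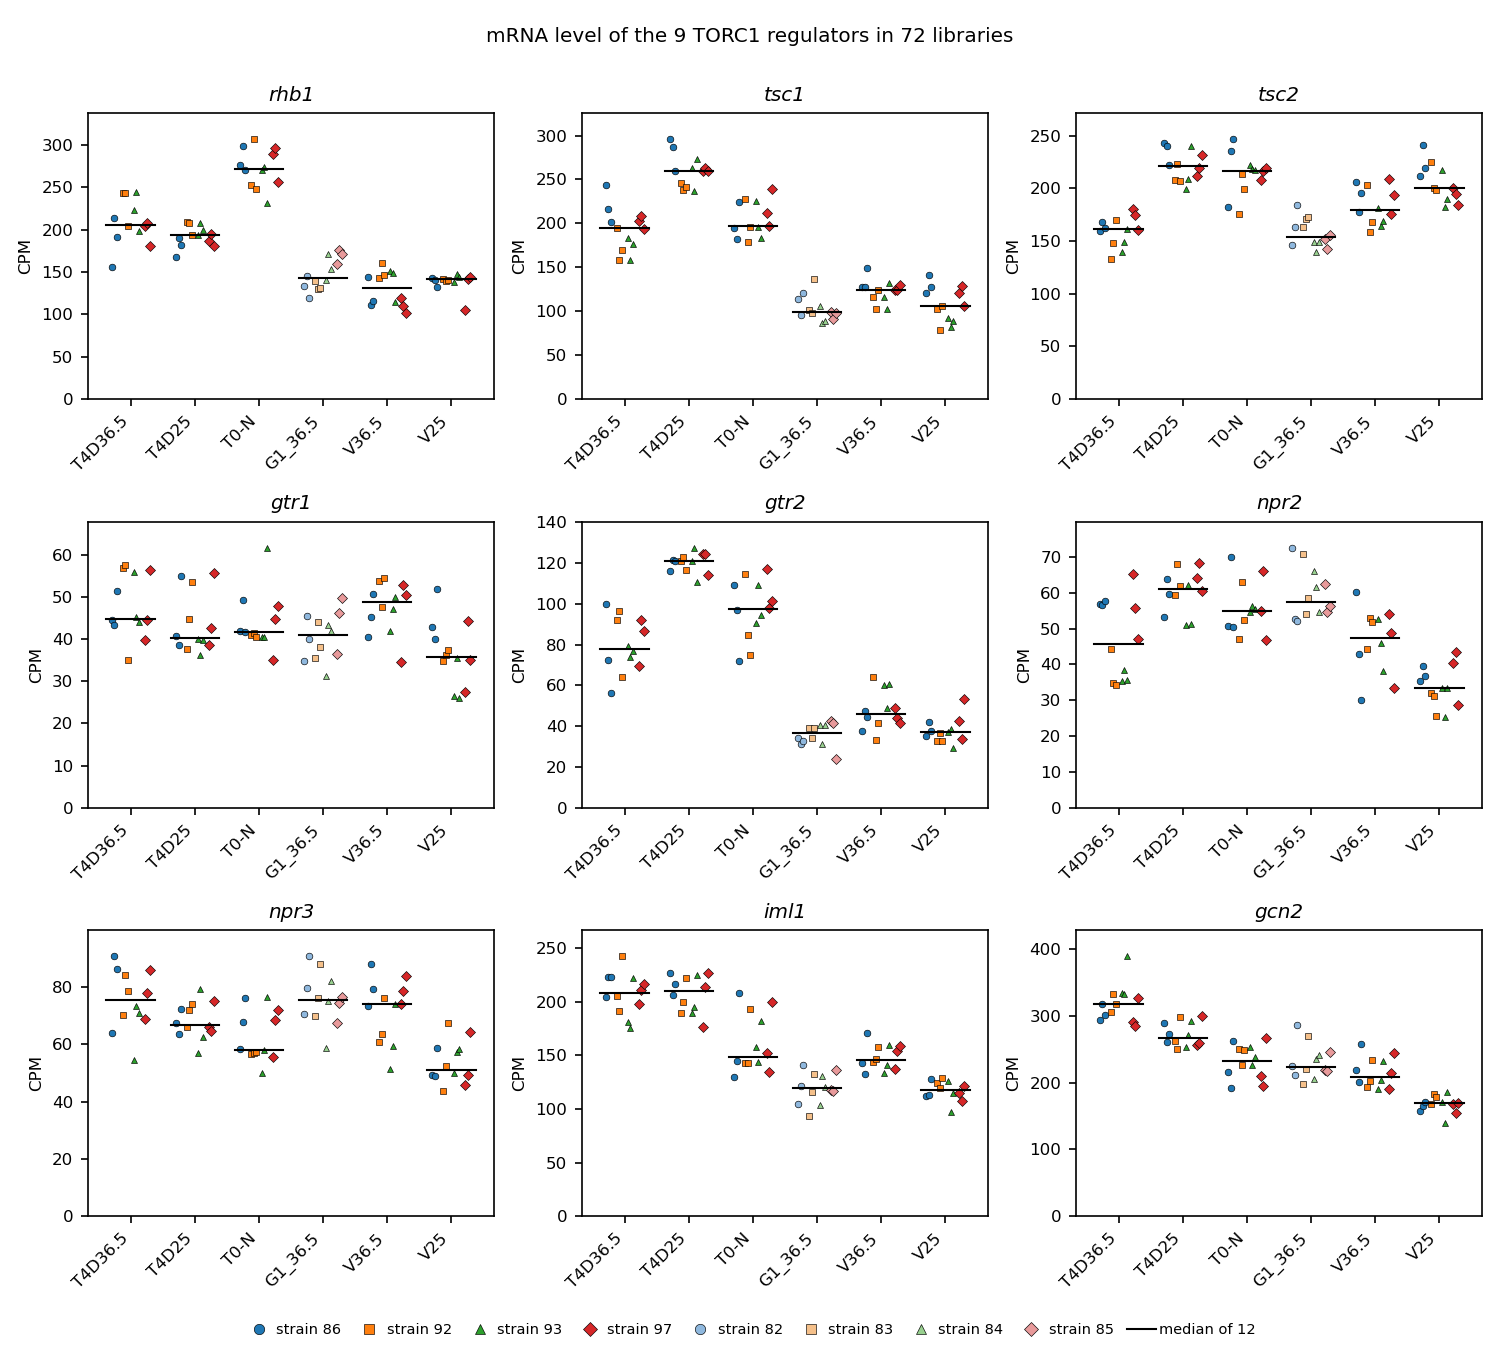
Level of each regulator in CPM (y axes from 0) in the 12 libraries of each growth condition, with a point per library, the strain code as the symbol and a line at the median. gtr2 and tsc1 lie higher in the nitrogen-deprived conditions (T4D36.5, T4D25 and T0-N) than in the cycling ones, whereas gtr1 spans overlapping values in all 6 conditions.

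Nitrogen deprivation went with a larger share of the library for nearly the whole set. In T0-N, 8 of the 9 genes were higher than in V25 and 0 were lower, and tsc2 did not pass the test (quasi-likelihood test of edgeR, p-values adjusted by Benjamini-Hochberg over all genes, threshold 0.05). Of all 6330 genes tested, 44.4% were called higher, 37.7% lower and 82.1% in either direction. The median log2 fold change was 0.44 over the 9 genes and 0.11 over all genes. The libraries of T0-N and V25 did not overlap for 6 of the 9 genes, against 41.8% of all genes. Whether more of an mRNA per cell or less of the other RNA raised its share of the library cannot be told from CPM.

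The GTPase genes rhb1 and gtr2 were among those that rose most. gtr2 had a median of 97.4 CPM in T0-N (from 72.2 to 117.0), against 36.9 CPM in V25 (from 29.5 to 53.4). All 12 T0-N libraries lay above all 12 V25 libraries. The log2 fold change of gtr2 was 1.34 (standard error, SE, 0.096, adjusted p = 9.93e-18), and ranged from 1.25 to 1.47 over the strains and from 1.18 to 1.53 over the batches. rhb1 had a median of 272 CPM in T0-N (from 232 to 307), against 141 CPM in V25 (from 105 to 148). Its groups did not overlap either. The log2 fold change of rhb1 was 0.96 (SE 0.062, adjusted p = 3.51e-19), with 0.84 to 1.11 over the strains. gtr1, the partner of gtr2, had a median of 41.7 CPM in T0-N (from 35.2 to 61.8), against 35.9 CPM in V25 (from 26.0 to 52.0). Its libraries overlapped, and its call, at 0.24 (SE 0.091, adjusted p = 0.0134), was lost whichever of the 3 replicates was left out (0.15 to 0.29), with no filter on low counts (0.17) and without ribosomal RNA genes (0.17).

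The 2 genes of the Tsc complex did not change alike. tsc1 had a median of 196.5 CPM in T0-N (from 179 to 239), against 106 CPM in V25 (from 78.8 to 141). All T0-N libraries were above all V25 libraries. The rise was 0.92 on the log2 scale (SE 0.059, adjusted p = 2.37e-19). tsc2 had a median of 217 CPM in T0-N (from 175 to 247), against 200.3 CPM in V25 (from 182 to 241). The libraries of both conditions covered the same range, and the log2 fold change of 0.03 (SE 0.054, adjusted p = 0.64) changed sign between settings and passed with at least 10 counts in every library (0.11).

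Of the GATOR1-type genes, npr2 rose most. npr2 had a median of 54.8 CPM in T0-N (from 46.7 to 70.0), against 33.4 CPM in V25 (from 25.4 to 43.5), without overlap. That is a log2 fold change of 0.71 (SE 0.092, adjusted p = 1.74e-09). iml1 had a median of 148 CPM in T0-N (from 129.4 to 208), against 117.4 CPM in V25 (from 96.9 to 129.1). These libraries met without overlapping, and the log2 fold change was 0.43 (SE 0.070, adjusted p = 3.05e-07). npr3 had a median of 58.0 CPM in T0-N (from 49.8 to 76.4), against 51.2 CPM in V25 (from 43.8 to 67.3). Its libraries overlapped, and its log2 fold change of 0.19 (adjusted p = 0.0204) was lost without replicate 1 (0.11) or replicate 2 (0.14), with no filter (0.12) and without ribosomal RNA genes (0.12). With no filter, or without ribosomal RNA genes, 6 of the 9 genes were thus called. gcn2, the eIF2 alpha kinase, had a median of 232 CPM in T0-N (from 193 to 267), against 169 CPM in V25 (from 139.5 to 186). Its libraries did not overlap, with a log2 fold change of 0.44 (SE 0.059, adjusted p = 2.65e-09).

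**Figure D2:**
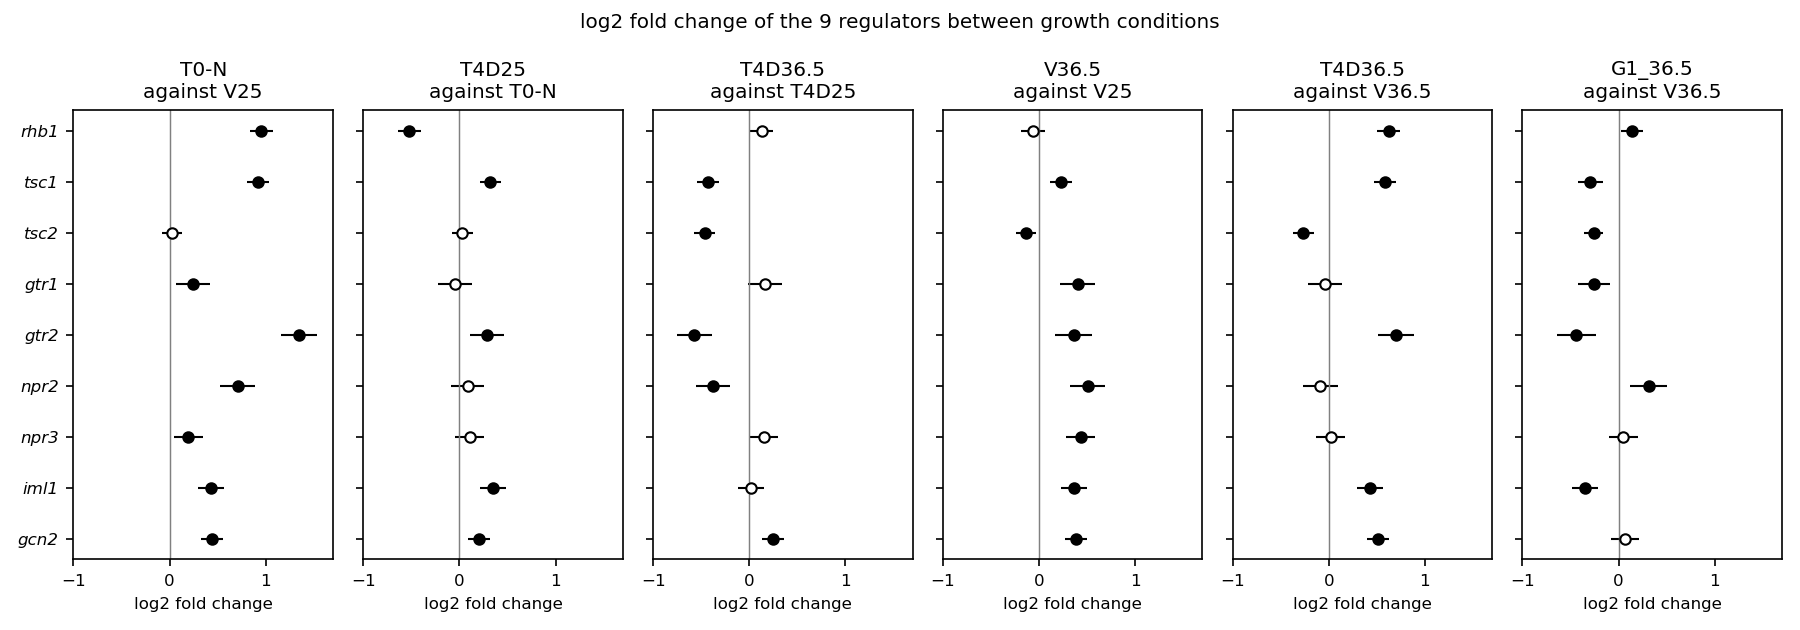
log2 fold change of each regulator (x axis, first-named over second-named condition) in the 6 comparisons between growth conditions. Points are the estimates, bars their 95% intervals and filled points adjusted p below 0.05. gtr2 has the highest value in T0-N against V25 (1.34), while rhb1 is the only filled point below 0 in T4D25 against T0-N (-0.52, against 0.46 on the spike-in scale).

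Other genes of the pathway moved in both directions. Among 31 further genes of the pathway in 7 lists, 15 were higher and 12 lower in T0-N than in V25, with a median log2 fold change of 0.11, like that over all genes. Of 5 TORC1 subunit genes, 2 were higher, 2 lower and 1 not called. toc1 was the highest with 0.83, and tco89, also a TORC1 component, had 0.58. Of 5 genes for anchoring and nucleotide exchange of the Gtr GTPases, 4 were higher and 1 lower. Among them lam3 (1.23) and lam1 (1.15), subunits of the vacuolar anchor of Gtr1 and Gtr2, changed by nearly as much as gtr2. Of 5 genes of the GATOR2-type complex, which acts on GATOR1, 1 was higher and 3 were lower, with sec13 at -1.47 and sea4 at -0.77. sec13 also serves vesicle coats and the nuclear pore.

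In the list around Gcn2, 2 of 6 genes were higher and 3 lower. hri1, another eIF2 alpha kinase, had a log2 fold change of 2.56, and tif211, which encodes eIF2 alpha itself, had -2.51. Of 4 genes for TORC1 targets and the GATA factor Gaf1, 3 were higher and 1 lower, led by the kinase gene sck1 (0.92) and gaf1 (0.62). Of the 2 genes for farnesylation, the lipid modification of Rhb1, cwp1 was higher (1.03) and cpp1 was not called. Of 4 genes of AMP-activated kinase signalling, 2 were higher and 2 lower, with amk2 at 0.98 and ssp1 at -0.35.

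After 4 further days at 25°C, rhb1 took a smaller share of the mRNA while several other regulators took a larger one. In T4D25, 4 of the 9 genes were higher than in T0-N, 1 was lower and 4 did not pass. Over all genes, 23.9% were called higher, 28.4% lower and 52.3% in either direction. rhb1 had a median of 194 CPM in T4D25 (from 167 to 209.6), against 272 CPM in T0-N (from 232 to 307). The libraries did not overlap, as for 8.04% of all genes. Its log2 fold change was -0.52 (SE 0.061, adjusted p = 9.82e-10) with TMM, but 0.46 (adjusted p = 0.0554) against the spike-in RNAs that the starved libraries hold. tsc1 had 259.5 CPM in T4D25 (from 237 to 296), against 196.5 CPM in T0-N (from 179 to 239). Its libraries overlapped at the edge, with a log2 fold change of 0.32 (SE 0.057, adjusted p = 6.67e-06). iml1 (0.35), gtr2 (0.29) and gcn2 (0.21) were the other genes called higher. gtr2 reached its highest level here, with a median of 121 CPM (from 110.6 to 127.6). The calls of gtr2 and gcn2 were lost without replicate 2.

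These directions depend on the scale. With library sizes of the 36 starved libraries set from the spike-ins, the median over all genes was 0.96 in T4D25 against T0-N. On that scale 98.5% of the genes called were higher, against 45.8% with TMM. The 9 regulators then had log2 fold changes from 0.46 for rhb1 to 1.32 for iml1. rhb1 was the lowest of the 9 on both scales, below the median of all genes. The share of a transcript in the library and its amount against the spike-ins are different quantities, and which follows the amount per cell was not tested. Spike-in counts also varied between replicates. In strain 93 in T4D36.5 they were 147821, 318904 and 109801, beside 2406167, 2401194 and 1505944 counts in genes. How precise the spike-in scale is was not tested.

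In cycling cells, heat went with a larger share of the library for most regulators. In V36.5, 7 of the 9 genes were higher than in V25 and 1 was lower, while 34.0% of all genes were called higher, 29.3% lower and 63.2% in either direction. The median log2 fold change was 0.36 over the 9 genes and 0.03 over all genes. npr2 had a median of 47.4 CPM in V36.5 (from 30.0 to 60.2), against 33.4 CPM in V25 (from 25.4 to 43.5). The libraries overlapped, and the log2 fold change was 0.51 (SE 0.093, adjusted p = 7.00e-06). npr3 (0.43), gtr1 (0.40), gcn2 (0.38), gtr2 (0.36), iml1 (0.36) and tsc1 (0.23) were also higher. gcn2 and iml1 were the genes without overlap between V36.5 and V25, 2 of 9 against 10.9% of all genes. gcn2 had a median of 209 CPM in V36.5 (from 190.1 to 258), against 169 CPM in V25 (from 139.5 to 186). tsc2 was lower, at -0.14 (adjusted p = 0.0250), a call lost without replicate 2 (-0.08), without the spike-in rows (-0.12) and with a stricter filter (-0.06). The call of tsc1 was lost without replicate 3 (0.14). rhb1 did not pass, at -0.06 (adjusted p = 0.396).

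In quiescent cells the same temperature went with a smaller share of the library for 4 regulators. In T4D36.5, tsc1, tsc2, gtr2 and npr2 were lower than in T4D25, gcn2 was higher with TMM but lower on the spike-in scale, and 4 genes did not pass. Of all genes, 35.3% were called lower, 33.8% higher and 69.0% in either direction. gtr2 had a median of 78.0 CPM in T4D36.5 (from 56.1 to 99.96), against 121 CPM in T4D25 (from 110.6 to 127.6). All 12 heated libraries lay below all 12 at 25°C, with a log2 fold change of -0.57 (SE 0.092, adjusted p = 4.45e-07). tsc2 had 161 CPM in T4D36.5 (from 133 to 181), against 221 CPM in T4D25 (from 199 to 243). It too showed no overlap, as did 15.0% of all genes, and the change was -0.46 (SE 0.055, adjusted p = 3.42e-10). tsc1 had 194 CPM in T4D36.5 (from 159 to 243.5), against 259.5 CPM in T4D25 (from 237 to 296), and its libraries overlapped slightly. The log2 fold change of tsc1 was -0.43 (SE 0.058, adjusted p = 1.17e-08), close to that of tsc2.

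npr2 had 45.7 CPM in T4D36.5 (from 34.2 to 65.3), against 61.2 CPM in T4D25 (from 50.9 to 68.3). The heated libraries spread more widely than those at 25°C and overlapped them, with a log2 fold change of -0.38 (SE 0.091, adjusted p = 0.000323). gcn2 had 318 CPM in T4D36.5 (from 285 to 390), against 267 CPM in T4D25 (from 250 to 300). These libraries overlapped at the edge, and the call, at 0.24 (SE 0.058, adjusted p = 0.000274), was lost without replicate 2 (0.19). iml1 did not pass (0.02, adjusted p = 0.816). Neither did gtr1 (0.17), npr3 (0.15) or rhb1 (0.13), with adjusted p from 0.0591 to 0.0963, but all of these 3 passed in the fit blocked by replicate number, at adjusted p of 0.0470 for gtr1, 0.0180 for npr3 and 0.0233 for rhb1. In a fit of the 36 starved libraries with the culture as the block, which pairs the T4D cultures, npr3 (adjusted p = 0.0458) and rhb1 (adjusted p = 0.0194) passed and gtr1 (adjusted p = 0.0666) did not.

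On the spike-in scale the 9 genes were all lower in T4D36.5 than in T4D25, with log2 fold changes from -1.45 for gtr2 to -0.69 for gcn2, where the median of all genes was -0.95 and 9.81% of the genes called were higher, against 48.9% with TMM. gtr2, tsc2, tsc1 and npr2 lay below that median, and gcn2, gtr1, rhb1, npr3 and iml1 above it. The 4 nitrogen starvation markers were also lower in T4D36.5, with log2 fold changes from -1.85 to -0.81, and ribosomal RNA took 8.03% to 13.4% of the gene counts in T4D36.5 and 11.8% to 18.4% in T4D25. The part of either in the fall of the regulators was not tested.

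On the mean of the 4 strains, gtr2, npr2 and tsc1 were lower with heat in quiescent cells and higher with heat in cycling cells. By strain, the log2 difference of npr2 in quiescent cells ranged from -0.74 in strain 92 to -0.04 in strain 86. That of tsc1 in cycling cells ranged from 0.05 in strain 86 to 0.41 in strain 93. The difference between the responses, tested in the same fit as T4D36.5 minus T4D25 against V36.5 minus V25, was below 0 for 6 of the 9 genes and above 0 for 0. Over all genes, 33.0% were called below 0, 27.9% above 0 and 60.9% in either direction, so the share of regulators called lies near that of all genes. The log2 difference was -0.93 for gtr2 (SE 0.134, adjusted p = 5.93e-08), -0.88 for npr2 (SE 0.130, adjusted p = 1.10e-07) and -0.65 for tsc1 (SE 0.083, adjusted p = 3.65e-09). iml1 (-0.34), tsc2 (-0.32) and npr3 (-0.28) also passed. The call of npr3 was lost without replicate 1, without replicate 2 and with DESeq2's size factors, and that of iml1 without replicate 2. gtr1 (-0.23, adjusted p = 0.111), gcn2 (-0.14, adjusted p = 0.145) and rhb1 (0.19, adjusted p = 0.0557) did not pass, although rhb1 did with the replicate block (adjusted p = 0.0217). Libraries of cycling cells hold no usable spike-ins, so this difference could not be put on the spike-in scale.

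**Figure D3:**
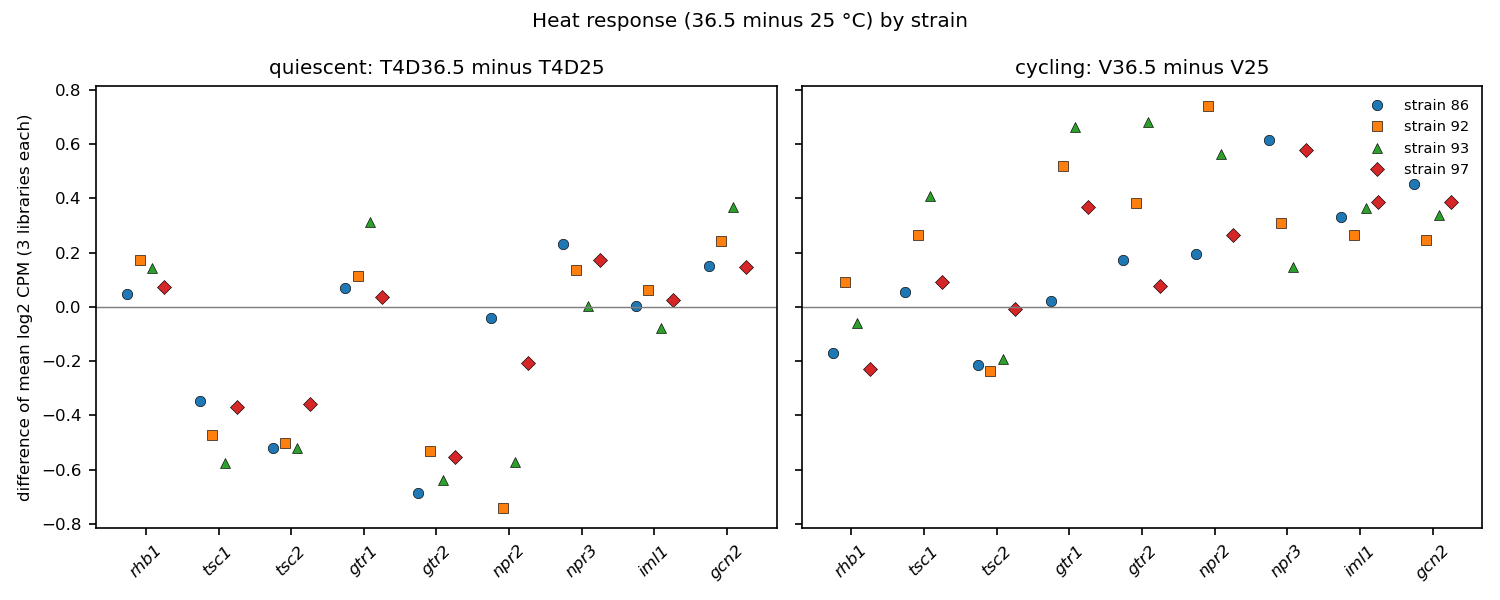
Difference of mean log2 CPM between 36.5°C and 25°C in each strain (y axis), for quiescent cells on the left and cycling cells on the right, with 3 libraries per strain and temperature. For gtr2 the 4 strains lie between -0.69 and -0.53 in quiescent cells and between 0.08 and 0.68 in cycling cells.

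At 36.5°C, gtr2, rhb1, tsc1, gcn2 and iml1 were higher in quiescent than in cycling cells, and tsc2 was lower. These 6 of 9 calls between T4D36.5 and V36.5 stand beside 40.6% higher, 41.4% lower and 82.0% in either direction over all genes, so the regulators were not called more often than other genes. tsc1 had a median of 194 CPM in T4D36.5 (from 159 to 243.5), against 124.5 CPM in V36.5 (from 102 to 149). Its libraries did not overlap, and neither did those of gcn2 and iml1, which makes 3 of 9 against 35.9% of all genes. The log2 fold changes were 0.70 for gtr2, 0.62 for rhb1, 0.59 for tsc1, 0.51 for gcn2 and 0.43 for iml1, each with 12 of 12 pairs of the same strain and batch higher. tsc2 was lower, at -0.27 (SE 0.055, adjusted p = 2.27e-05). gtr1 (-0.04), npr2 (-0.09) and npr3 (0.02) did not pass, and their signs changed between settings. For npr2 the strains had opposite signs, with differences of mean log2 CPM of 0.42 in strain 86 and 0.32 in strain 97. They were -0.40 in strain 92 and -0.30 in strain 93. Whether this comparison depends on strain was not tested. These comparisons share libraries with those above and are not independent of them. T4D36.5 and V36.5 also differ in medium and in time at 36.5°C.

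In cells arrested in G1, most regulators were lower than in cycling cells at the same temperature, by small amounts. In G1_36.5, 5 of the 9 genes were lower than in V36.5 and 2 were higher, while 34.5% of all 6219 genes tested were called lower, 34.1% higher and 68.6% in either direction. The median log2 fold change was -0.26 over the 9 genes and 0.01 over all genes. Of the 9 genes, 0 had libraries without overlap, against 10.9% of all genes. gtr2 had a median of 36.5 CPM in G1_36.5 (from 23.9 to 42.6), against 46.0 CPM in V36.5 (from 33.1 to 64.1). The change was -0.44 (SE 0.105, adjusted p = 0.000952). iml1 (-0.35), tsc1 (-0.29), tsc2 (-0.26) and gtr1 (-0.26) were lower as well, the last without a call when replicate 3 was left out (-0.19) or when at least 10 counts were required in every library (-0.16). npr2 went the other way, with a median of 57.4 CPM in G1_36.5 (from 52.2 to 72.6), against 47.4 CPM in V36.5 (from 30.0 to 60.2). The change of npr2 was 0.31 (SE 0.098, adjusted p = 0.00735). rhb1 passed narrowly (0.14, adjusted p = 0.0423), but was not called without replicate 2 (0.11) or 3 (0.14), or by the likelihood ratio test (0.13). The G1 libraries come from other strain codes than the cycling ones, so the arrest and the strain background cannot be told apart.

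Partners of the same complex, and rhb1 with tsc2, the gene of its inactivator, were compared by the ratio of their counts within a library. Such a ratio does not depend on library size or on the scaling. These ratios are of counts, not per length, and are compared only across conditions. Of 30 differences, over 5 ratios and 6 comparisons, 18 had an adjusted p below 0.05 (two-sided permutation test over 12 and 12 libraries with 100000 resamples, adjusted over the 30). The ratio gtr2/gtr1 had a median of 2.14 in T0-N (from 1.52 to 3.31), against 1.03 in V25 (from 0.726 to 1.54), so the T0-N libraries were higher with a narrow overlap. The log2 difference was 1.08 (permutation p = 2e-05, the smallest these resamples can give, adjusted p = 7.5e-05). A median of 1.67 was found in T4D36.5 (from 1.09 to 2.24), against 2.88 for T4D25 (from 2.03 to 3.51). This log2 difference of -0.74 had the same permutation p and adjusted p. Heat in cycling cells gave no such difference (-0.06, permutation adjusted p = 0.739).

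The ratio tsc1/tsc2 had a median of 0.946 in T0-N (from 0.771 to 1.30), against 0.553 in V25 (from 0.395 to 0.659), without overlap. The log2 difference was 0.89 (permutation adjusted p = 7.5e-05). It was higher in V36.5 than in V25 (0.37, permutation adjusted p = 0.000218) and hardly differed between T4D36.5 and T4D25 (0.03, permutation adjusted p = 0.649), with medians of 1.20 and 1.18. rhb1/tsc2, the ratio of the GTPase gene to that of its inactivator, had a median of 1.26 in T0-N (from 1.07 to 1.52), against 0.687 in V25 (from 0.527 to 0.811). It was lower in T4D25 than in T0-N, with a median of 0.884 (from 0.689 to 1.01) and a log2 difference of -0.55, and these libraries did not overlap. In T4D36.5 it was higher than in T4D25, with a median of 1.21 (from 0.976 to 1.83) and a log2 difference of 0.59. All of these changes of rhb1/tsc2 had a permutation adjusted p of 7.5e-05.

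Within the GATOR1-type complex, npr3/npr2 had a median of 1.07 in T0-N (from 0.906 to 1.53), against 1.54 in V25 (from 1.13 to 2.60), a log2 difference of -0.50 (permutation adjusted p = 0.00231). It had a median of 1.59 in T4D36.5 (from 1.06 to 2.40), against 1.15 in T4D25 (from 0.946 to 1.27), a difference of 0.52 (permutation adjusted p = 0.0006). Both pairs of conditions overlapped. iml1/npr2 was lower in G1_36.5, with a median of 2.14 (from 1.32 to 2.702), against 3.07 in V36.5 (from 2.36 to 5.59). Its log2 difference was -0.70 (permutation adjusted p = 0.00018). iml1/npr2 did not pass for T0-N against V25 (-0.28, permutation adjusted p = 0.0675), but passed with libraries paired by strain and batch (adjusted p = 0.00839).

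**Figure D4:**
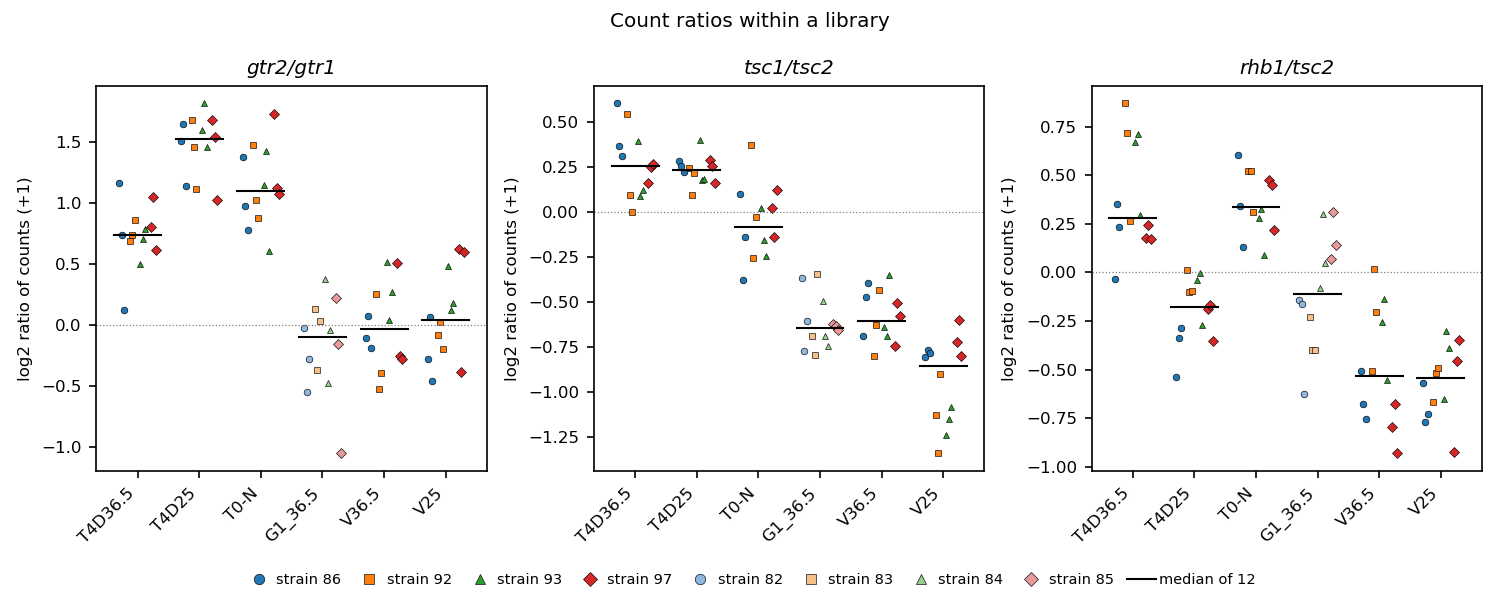
log2 ratio of the counts of 2 regulators within a library (y axes, 1 added to each count), by growth condition, with the strain code as the symbol and a line at the median of 12 libraries. tsc1/tsc2 does not overlap between T0-N and V25, and gtr2/gtr1 is higher in T0-N (median ratio 2.14) than in V25 (median ratio 1.03).

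Strains differed in few of the regulators. The test of any difference among the 4 strains, run in each condition, called 3 of 54 combinations of gene and condition. These were tsc1 in V25, npr2 in T4D36.5 and rhb1 in G1_36.5. The share of all genes called was 19.1% in V25, 26.1% in T4D36.5 and 10.9% in G1_36.5, so 1 gene of 9 lies near or below the background in each. In V36.5, T0-N and T4D25, 0 of the 9 were called by edgeR, its likelihood ratio test or DESeq2. At an unadjusted p below 0.05 there was 1 in V36.5 (rhb1) and 0 in the other 2 conditions. Over all genes, 6.31% were called in V36.5, 0.940% in T0-N and 1.75% in T4D25. The test of whether the response to nitrogen deprivation or to heat depends on the strain called 0 of 27 combinations, where 10.2% of all genes were called for nitrogen, 1.99% for heat in cycling cells and 9.86% for heat in quiescent cells. The likelihood ratio test also called 0 of these 27, and an unadjusted p below 0.05 was reached by tsc1 for nitrogen and npr2 for heat in quiescent cells. With the replicate number as a block, 6 of the 54 were called, which added rhb1 (adjusted p = 0.0463) and npr3 (adjusted p = 0.0317) in V36.5 and tsc1 (adjusted p = 0.0260) in T4D36.5. The block also raised the share of all genes called, to 17.5% in V36.5, 39.1% in T4D36.5, 33.0% in V25, 27.2% in G1_36.5, 8.25% in T0-N and 7.55% in T4D25. Strain dependence was called for 2 of the 27 with the block, tsc1 for nitrogen and npr2 for heat in quiescent cells, beside 19.6% of all genes for nitrogen, 19.2% for heat in quiescent cells and 5.83% for heat in cycling cells.

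In V25, tsc1 had 91.9, 82.0 and 88.99 CPM in strain 93, 103, 78.8 and 106 CPM in strain 92, 121, 128 and 106 CPM in strain 97 and 121, 141 and 127 CPM in strain 86. Strains 93 and 92 were low, and all their libraries lay below those of strain 86. The log2 fold change was -0.57 for strain 93 against 86 (SE 0.131, adjusted p = 0.0102) and -0.42 for strain 92 against 86 (SE 0.131, adjusted p = 0.0474), and 0.43 for strain 97 against 93 (SE 0.132, adjusted p = 0.0378). Over all genes 17.5%, 16.0% and 18.1% were called in these pairs. In T0-N the same 4 strains had mean tsc1 levels from 200.4 to 216 CPM and no call. The log2 change without nitrogen was accordingly 1.20 in strain 93, 1.07 in strain 92, 0.86 in strain 97 and 0.62 in strain 86. The test of whether this change depends on strain gave an adjusted p of 0.0709 for tsc1 and of 0.0151 with the replicate block. The difference among strains in V25 was lost without replicate 1 or replicate 2 (adjusted p = 0.159 and 0.307). gtr1 had 26.6, 35.6 and 26.0 CPM in strain 93, against 43.0, 40.0 and 52.0 CPM in strain 86 in V25, without overlap and with a log2 fold change of -0.59 (SE 0.189, adjusted p = 0.0464).

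In T4D36.5, npr2 had 35.5, 38.5 and 35.7 CPM in strain 93, 44.2, 34.9 and 34.2 CPM in strain 92, 65.3, 55.8 and 47.2 CPM in strain 97 and 56.8, 56.5 and 57.6 CPM in strain 86. The libraries of strains 92 and 93 all lay below those of strains 86 and 97. The log2 fold change was -0.67 for strain 93 against 86 (SE 0.156, adjusted p = 0.0105) and -0.62 for strain 92 against 86 (SE 0.157, adjusted p = 0.0127). Strain 97 was higher than strain 92 by 0.59 (adjusted p = 0.0152) and higher than strain 93 by 0.64 (adjusted p = 0.0123). Over all genes 18.3%, 22.9%, 25.7% and 21.3% were called in these pairs. In T4D25 the ranges of the 4 strains overlapped, from 50.9 to 68.3 CPM. The fall of npr2 with heat in quiescent cells was 0.74 in strain 92 and 0.57 in strain 93, while strains 97 and 86 had differences of -0.21 and -0.04. Its dependence on strain had an adjusted p of 0.142, and of 0.0351 with the replicate block. The difference among strains in T4D36.5 was lost without replicate 2 (adjusted p = 0.213).

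In G1_36.5, rhb1 had 160, 176 and 171 CPM in strain 85, 141, 172 and 154 CPM in strain 84, 139, 129.5 and 131 CPM in strain 83 and 133, 146 and 119 CPM in strain 82. All libraries of strain 85 lay above those of strains 83 and 82. The log2 fold change was 0.41 for strain 85 against 83 (SE 0.107, adjusted p = 0.0359) and 0.40 for strain 85 against 82 (SE 0.108, adjusted p = 0.0418), where 8.13% and 7.37% of all genes were called. The difference among strains, with an adjusted p of 0.0441, was lost whichever replicate was left out (adjusted p from 0.120 to 0.554), without a filter (adjusted p = 0.0860) and with the size factors of DESeq2 (adjusted p = 0.0676). In all, 10 of 324 combinations of a pair of strains, gene and condition were called, beside 6.09% of such combinations over all genes. With the replicate block 17 were called, beside 12.6% over all genes. The added calls were rhb1 for strains 84 against 82 and 84 against 83 in G1_36.5 and 97 against 92 in V36.5, npr3 for 93 against 86 and 97 against 93 in V36.5, and tsc1 for 92 against 86 and 93 against 86 in T4D36.5.

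**Figure D5:**
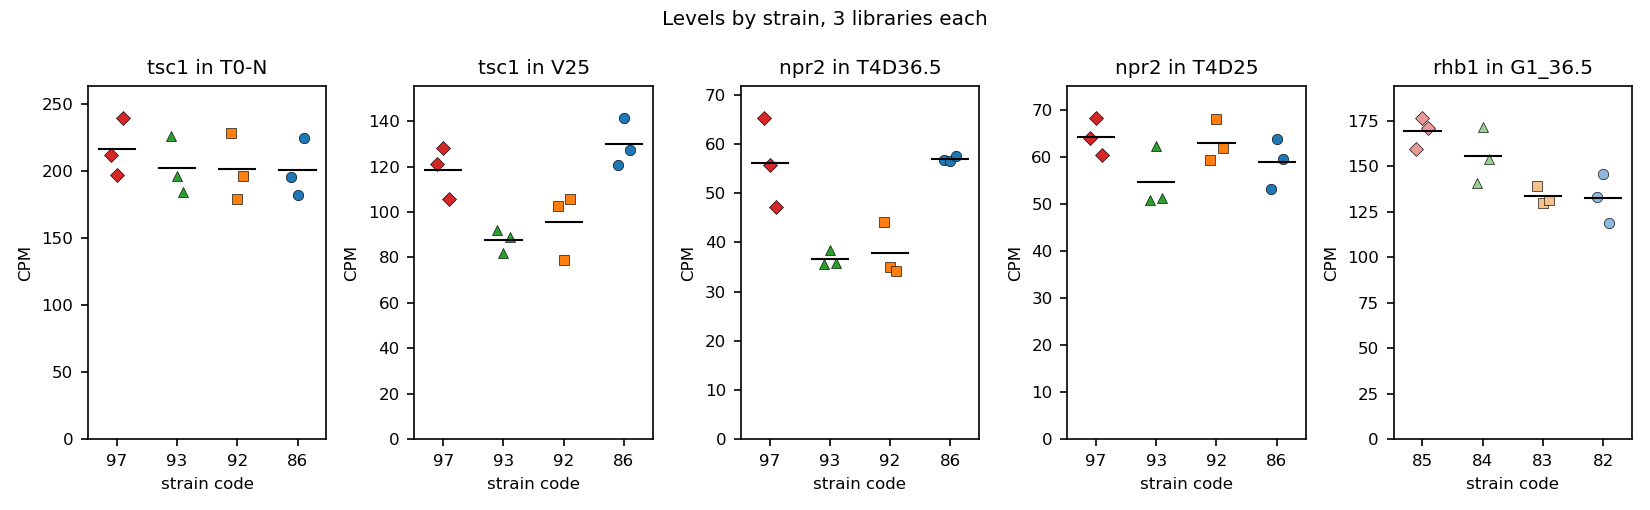
CPM (y axes from 0) of tsc1, npr2 and rhb1 in each strain code (x axes) for the conditions in which strains differed and, for tsc1 and npr2, a condition in which they did not pass the test. Points are the 3 libraries and lines their means. npr2 in T4D36.5 lies between 34.2 and 44.2 CPM in strains 92 and 93 and between 47.2 and 65.3 CPM in strains 86 and 97.

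Over the 24 groups of strain and condition, tsc1 and gtr2 followed each other most closely among the regulators, with a Pearson r of 0.961 between their mean log2 CPM. iml1 followed tsc1 (r = 0.874) and gtr2 (r = 0.860), whereas tsc2 and npr3 had an r of -0.457. Among 4795 protein-coding genes, the profile of gtr2 was most like that of srw1 (r = 0.984) and ync13 (r = 0.979). srw1 encodes an activator of the anaphase-promoting complex needed for G1 arrest without nitrogen. The nearest profile to tsc1 was that of fah2 (r = 0.975), to iml1 that of vps15 (r = 0.971), to gcn2 that of pof10 (r = 0.967) and to tsc2 that of rtn1 (r = 0.930). gtr1 had no close neighbour, since the nearest gene, btn1, reached an r of 0.765. It also had few counts, and its medians ranged only from 35.9 CPM in V25 to 48.9 CPM in V36.5. The part of this in its low r was not tested. These correlations describe 24 groups that share conditions and batches, and the points are not independent.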

How the data were processed

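Total RNA of 72 fission yeast cultures was depleted of ribosomal RNA with Ribominus, made into stranded libraries and read as pairs of 58 bases. The authors aligned the reads with STAR 2.7.10a to ASM294v2 and counted them in annotated exons with featureCounts 1.5.1, and deposited these raw counts for 7014 genes and 92 spike-in RNAs. The strand setting of the counting was not given in the sources used here. Groups came from the labels.

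All rows entered filterByExpr, TMM and the quasi-likelihood F test of edgeR 4.0.16 (R 4.3.3), with Benjamini-Hochberg adjustment at 0.05. Conditions were compared in 60 libraries and averaged over 4 strains, G1_36.5 with V36.5 in 24 libraries, and strains in 12 libraries of a condition. The SE is the size of the log2 fold change over the square root of F. Log2 CPM used a prior count of 2, and ratios a pseudocount of 1. Differences by strain and by batch are of log2 CPM, normalised over the 72 libraries without the spike-in rows. They need not average to the log2 fold changes of the fits, which were normalised over their own libraries with these rows. At the floor of 3 counts a library reads 0.329 to 2.50 CPM, which covers counting error only. Ratios, promoters and figures used Python 3.11.15, pandas 2.3.3, scipy 1.17.1 and matplotlib 3.10.9. The test was checked on simulated data with 200 changed genes. The simulated libraries were drawn independently, so the check did not cover libraries that deviate together. 

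The labels call the replicate number a batch. Libraries with the same number deviated together from their group means, with a mean correlation of 0.211 to 0.48 within conditions, against -0.238 to -0.103 for other numbers, and of 0.201 against -0.099 between conditions. A fit with this block is therefore given where it changes a call. p-values otherwise take libraries as independent, although T4D cultures continue T0-N cultures. Alternatives were DESeq2 1.42.0 and its size factors, the likelihood ratio test, other filters, no ribosomal RNA genes, no spike-ins, spike-in library sizes and each replicate left out.

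The members and lists were chosen with earlier results of these data known. All 9 members are named, and up to 2 genes of each further list, those with the largest change. Likeness was ranked over 4795 protein-coding genes whose mean log2 CPM was 3 or more.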

Additional observations from a re-analysis of the deposited data

Results flagged for a closer look

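For 6 of the 9 regulators the effect of 36.5°C against 25°C differed between quiescent and cycling cells in the test of the difference itself (edgeR, Benjamini-Hochberg adjustment over all genes), where a like share of all genes, 60.9%, was called. The log2 difference, quiescent minus cycling, was -0.9327 for gtr2, whose product is a Rag GTPase, -0.8824 for npr2 and -0.6507 for tsc1. These genes were lower in heated quiescent cells and higher in heated cycling cells. It was -0.3412 for iml1, a GATOR1-type gene that had 0.02 in quiescent and 0.36 in cycling cells. It was -0.3248 for tsc2, which was lower with heat in both states, and -0.2806 for npr3, which had 0.15 in quiescent and 0.43 in cycling cells. Nitrogen starvation markers were lower and depth was lower in T4D36.5 than in T4D25, and their part in these differences was not tested. Time at 36.5°C and medium also differed between the quiescent and cycling comparisons and cannot be told apart from cell state.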

How the results depend on the processing

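The 63 log2 changes of the regulators were recomputed under the alternatives, which gave 729 values. Of these, 648 kept direction and side of the threshold, 29 passed it newly, 26 fell short and 26 reversed. Each cause was not tested.

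tsc2 in T0-N against V25 reversed to -0.0471 with no filter on low counts, -0.0494 without ribosomal RNA genes, and lay between -0.0303 and 0.0288 with a replicate left out. rhb1 in V36.5 against V25 was 0.0151 with at least 10 counts in every library. In T4D25 against T0-N, spike-in library sizes gave 0.4569 for rhb1 and 0.9816 for gtr1, and gtr1 was also 0.0169 with no filter, 0.0145 without ribosomal RNA genes, and -0.068 to 0.0476 with a replicate left out. In T4D36.5 against T4D25, spike-in sizes gave -0.7996 for rhb1, -0.7798 for gtr1, -0.6936 for gcn2, -0.8111 for npr3 and -0.9287 for iml1, and iml1 was -0.0016 with no filter and -0.0022 to 0.0106 with a replicate left out. In T4D36.5 against V36.5, gtr1 was 0.0644 with DESeq2, 0.0615 with its size factors, 0.0745 with at least 10 counts and -0.149 to 0.0745 with a replicate left out. npr2 was 0.0046, 0.0103 and 0.0242 in the first 3 of these, and npr3 was -0.0673 to 0.0914 with a replicate left out. With a replicate left out, ratios reversed for tsc1/tsc2 in T4D36.5 against T4D25 (-0.0093 to 0.0632) and in G1_36.5 against V36.5 (-0.1498 to 0.0134). npr3/npr2 reversed in V36.5 against V25 (-0.0723 to 0.0207), T4D25 against T0-N (-0.0388 to 0.0979) and T4D36.5 against V36.5 (-0.0311 to 0.1704), and iml1/npr2 in V36.5 against V25 (-0.2121 to 0.0166). Of these changes, those of rhb1 in T4D25 against T0-N and gcn2 in T4D36.5 against T4D25 were calls in the TMM fit.

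In T4D25 against T0-N, 5 regulators and 3311 genes were called, 3 to 5 and 2043 to 3368 with a replicate left out, and 8 and 5380 with spike-in sizes. In T4D36.5 against T4D25, 5 regulators were called, 8 with DESeq2, its size factors, at least 10 counts or the replicate block, and 9 with spike-in sizes. Other counts of regulators between conditions stayed within 1.5 times, such as 6 to 9 for T0-N against V25, where 8 were called.

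Counts of strain differences moved most. The regulators called fell from 1 to 0 in G1_36.5 with DESeq2 size factors, no filter, at least 10 counts, no ribosomal RNA genes or any replicate left out. They were 0 to 1 in V25 and in T4D36.5 with a replicate left out, 2 in T4D36.5 and 2 in V36.5 (0 without it) with the replicate block. Strain dependence gave 0 regulators, against 1 for heat in quiescent cells with the block, and 1 for nitrogen with the block, DESeq2 size factors, at least 10 counts, spike-ins left out or without replicate 3 (0 to 1 with a replicate left out). Over all genes, strain differences were called for 676 genes in G1_36.5 (1694 with the block, 23 to 424 with a replicate left out), 56 in T0-N (181 by the likelihood ratio test, 188 by DESeq2, 33 with at least 10 counts, 491 with the block, 1 to 22 with a replicate left out) and 104 in T4D25 (241, 210 and 449 by the likelihood ratio test, DESeq2 and the block, 13 to 103 with a replicate left out). The counts were 1571 in T4D36.5 (184 to 1285 with a replicate left out), 1059 in V25 (1832 with the block, 274 to 916 with a replicate left out) and 376 in V36.5 (599, 570 and 1043 by the likelihood ratio test, DESeq2 and the block, 22 to 175 with a replicate left out). Strain dependence was called for 126 genes for heat in cycling cells (190 by the likelihood ratio test, 369 with the block, 14 to 59 with a replicate left out), 624 for heat in quiescent cells (1216 with the block, 55 to 424) and 644 for nitrogen (1239 with the block, 110 to 477). Apart from the calls named in the report and iml1/npr2 in T4D25 against T0-N (adjusted p = 0.0278 in paired permutations), the block by replicate number changed no call of a regulator or ratio. npr2, gtr1 and gtr2 had the fewest counts, and small differences in them may not be detectable at this depth.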
